A study of Mus musculus with 12 samples.

Results

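Scn4b, Afdn, Arhgef10l and Bst1 were 4 genes with higher transcript levels in thymocytes of the DN3 stage than in those of the stages before and after it. They were chosen from these data for that pattern, so their differences between DN3 and either neighbouring stage describe them and carry no test here. On the Affymetrix Mouse Genome 430 2.0 array they had 6 of 45101 probe sets and were 4 of the 18194 genes named by a single symbol. Of the 6 probe sets, 5 passed a filter on dim signals. Afdn was formerly named Mllt4.

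The cells were thymocytes of female C57BL/6 mice aged 5 to 6 weeks, with no treatment or genetic change named in the labels. Magnetic columns were used to deplete CD4+ or CD8+ thymocytes. A gate then left out whatever still bound antibodies to NK1.1, CD3, CD8, CD4 or the gamma-delta receptor, and the rest were split by CD44 and CD25. The DN2 gate took CD44+CD25+ cells, the DN3 gate held CD44-CD25+ cells, and cells lacking both made up DN4. Each of 4 sorts pooled 4 mice, 16 in all, and gave 1 array per stage, 12 arrays in 3 groups of 4. No surface marker beyond these gates defined the stages, and each value is a mean over the cells of a pool. In bulk RNA of this kind, fewer cells of a type and less RNA per cell cannot be told apart.

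DN thymocytes carry neither CD4 nor CD8. At DN3 the T cell receptor beta locus is rearranged, and a cell with a working beta chain displays it with the pre-T alpha chain as the pre-T cell receptor. Signals from that receptor, together with Notch ligands of the thymic epithelium, take the cell through beta selection to DN4, where CD25 is lost. Scn4b encodes the beta-4 subunit of voltage-gated sodium channels, a membrane protein with an immunoglobulin-like domain. Afdn encodes afadin, which ties nectin adhesion receptors to actin and binds Rap1. Arhgef10l encodes a guanine nucleotide exchange factor of the Dbl family. Bst1 encodes CD157, a surface enzyme anchored in the membrane by a lipid, which acts on NAD and in mice is found on stromal cells of lymphoid organs and on early B and T lineage cells.

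The bases before the transcription start are shown for Scn4b, for its neighbour Scn2b, which encodes another sodium channel beta subunit and had a like profile, and for Arhgef10l, whose window held a motif found in few promoters. Each line gives the 250 bases upstream of the start in RefSeq's annotation of GRCm38.p6, 5′ to 3′ on the gene's own strand, with motif matches in capitals. The Scn4b window lies at chr9:45138374-45138623 on the plus strand, the Scn2b window at chr9:45117626-45117875 on the plus strand, and the Arhgef10l window at chr4:140665906-140666155 on the minus strand.
Scn4b: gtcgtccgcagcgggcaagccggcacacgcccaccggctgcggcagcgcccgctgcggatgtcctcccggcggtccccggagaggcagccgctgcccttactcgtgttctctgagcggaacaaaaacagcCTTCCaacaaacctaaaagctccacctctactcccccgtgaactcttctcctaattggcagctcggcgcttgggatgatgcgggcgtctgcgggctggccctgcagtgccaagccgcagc
Scn2b: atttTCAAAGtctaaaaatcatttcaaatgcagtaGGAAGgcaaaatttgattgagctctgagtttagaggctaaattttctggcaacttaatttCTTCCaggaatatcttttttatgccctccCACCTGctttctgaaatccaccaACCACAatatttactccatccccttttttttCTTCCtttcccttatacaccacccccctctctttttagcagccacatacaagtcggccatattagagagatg
Arhgef10l: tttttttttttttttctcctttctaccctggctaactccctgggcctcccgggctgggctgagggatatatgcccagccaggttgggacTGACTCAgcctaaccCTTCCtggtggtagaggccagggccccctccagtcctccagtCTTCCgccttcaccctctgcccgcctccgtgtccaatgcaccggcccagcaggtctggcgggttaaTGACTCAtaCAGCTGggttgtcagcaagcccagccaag

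The search covered 8 short motifs on both strands. The first E-box was spelled CAGCTG, the second was spelled CACCTG, the TCF/LEF motif was CTTTGA, the Runx motif TGTGGT, the RBPJ motif TGGGAA, the AP-1 motif TGACTCA, the GATA motif was spelled GATAA, with GGAAG for ETS factors. The RBPJ motif can share letters with the ETS motif, but no matches overlapped in these windows. The Scn4b window held 1 match, to the ETS motif, which is present in 64.1% of 32851 promoter windows of the same length. The Scn2b window held 1 match each to the second E-box (17.2% of promoters), the TCF/LEF motif (13.8%) and the Runx motif (14.0%), and 3 to the ETS motif. The Arhgef10l window held 2 matches to the AP-1 motif, which 4.46% of promoters hold, 1 to the first E-box (13.0%) and 2 to the ETS motif. The AP-1 matches lay 161 to 155 and 38 to 32 bases before the start. The RBPJ motif (21.6%) and the GATA motif (22.6%) matched in none of the 3 windows. The Afdn window held none of the 8 motifs, and 82.8% of its bases were G or C, against a median of 52.4% over all promoters. The share was 66.0% for Scn4b, 38.4% for Scn2b and 59.2% for Arhgef10l. Arhgef10l had 2 RefSeq starts and the outermost one was used. Bst1 had no entry. A match describes letters in a window and is not a binding site.

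Values below are the deposited signals after quantile normalization, and log2 levels are log2(signal + 5.56). Differences are on that scale with standard errors from limma, and they understate the change of dim probe sets. The filter level was log2 4.7, a signal of 20.5, to be passed on at least 4 arrays. P-values are limma's, adjusted by Benjamini and Hochberg over the 24132 probe sets that passed, with 0.05 as the threshold. Each probe set is compared only with itself, since brightness depends on its probes. The arrays had trimmed mean signals of 130 to 234 before normalization. The log2 ratio of 3' to 5' Gapdh control probe sets, a sign of RNA shortening, was 1.16 to 1.61 on DN2 arrays, 0.94 to 1.2 on DN3 arrays and 1.02 to 1.32 on DN4 arrays. The DN2 and DN3 ranges overlapped, but within every sort the DN2 array had a higher ratio than the DN3 and DN4 arrays. In sorts 1 to 4 it was 1.57, 1.61, 1.27 and 1.16 in DN2, against 0.94, 1.2, 1 and 1.11 in DN3. The Gapdh ratio thus ran with stage, and a fit with the sorts as a block and this ratio as a covariate is among the alternatives. The same ratio of actin control probe sets did not run with stage. In sorts 1 to 4 the actin ratio was 0.89, 0.9, 1.08 and 1.06 in DN2, against 1, 0.91, 0.93 and 1.05 in DN3. No fit used the actin ratio. Cd44 and Il2ra followed the gates. Cd44 was lower in DN3 than in DN2 by -3.23 ± 0.35 (adjusted p = 0.00015) on one probe set and by -3.69 ± 0.33 (adjusted p = 2.86e-05) on the other. Il2ra, which encodes CD25, was lower in DN4 than in DN3 by -3.01 ± 0.15 (adjusted p = 9.45e-07) and by -3.56 ± 0.22 (adjusted p = 4.32e-06). The gate left out CD8+ cells, yet Cd8b1 was higher in DN4 than in DN3 by 3.77 ± 0.30 (adjusted p = 2.9e-05), with signals of 241 to 424 in DN4 and 11.6 to 31.0 in DN3. Cd8a was higher by 0.97 ± 0.26 (adjusted p = 0.0325), while Cd4 stayed at signals of at most 4.25 in all stages. The cause was not tested. The number of arrays limits the precision.

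Scn4b had the largest steps into and out of DN3 of the 4 genes. Its normalised signal was 35.8, 64.5, 29.3 and 21.0 in DN2 in sorts 1 to 4, then 574, 879, 700 and 465 in DN3, and 26.8, 64.5, 26.0 and 39.1 in DN4. Every DN3 array lay far above every array of the other stages, and the DN2 and DN4 ranges overlapped. The means were 37.7 ± 18.9, 655 ± 178 and 39.1 ± 18 in DN2, DN3 and DN4 (SD, n = 4 each). Log2 levels were higher in DN3 than in DN2 by 3.99 ± 0.33, or 15.9-fold. DN4 was below DN3 by -3.93 ± 0.33, or 15.2-fold. Both steps were therefore of like size, and both neighbours stayed above the filter level on 4 of 4 arrays. Over all probe sets 7.12% were called in DN3 against DN2 and 11.2% in DN4 against DN3. DN3 arrays did not overlap those of either neighbour on any of the 5 probe sets past the filter. The margin was narrow on Bst1 1449453_at, at 222 in DN2 and 225 in DN3 in sort 1. The genes were chosen for a peak in DN3, and the share of all probe sets without overlap was not counted.

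The sorts differed in their Scn4b level but not in its course. Sort 2 was highest at all 3 stages and lay 0.66 above the stage means on average. The DN3 minus DN2 difference nevertheless spanned only 3.66 to 4.34 over the sorts, and DN4 minus DN3 spanned -4.48 to -3.40. In DN4 against DN2, sort 4 was higher by 0.75 and sort 1 lower by -0.36.

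**Figure D1:**
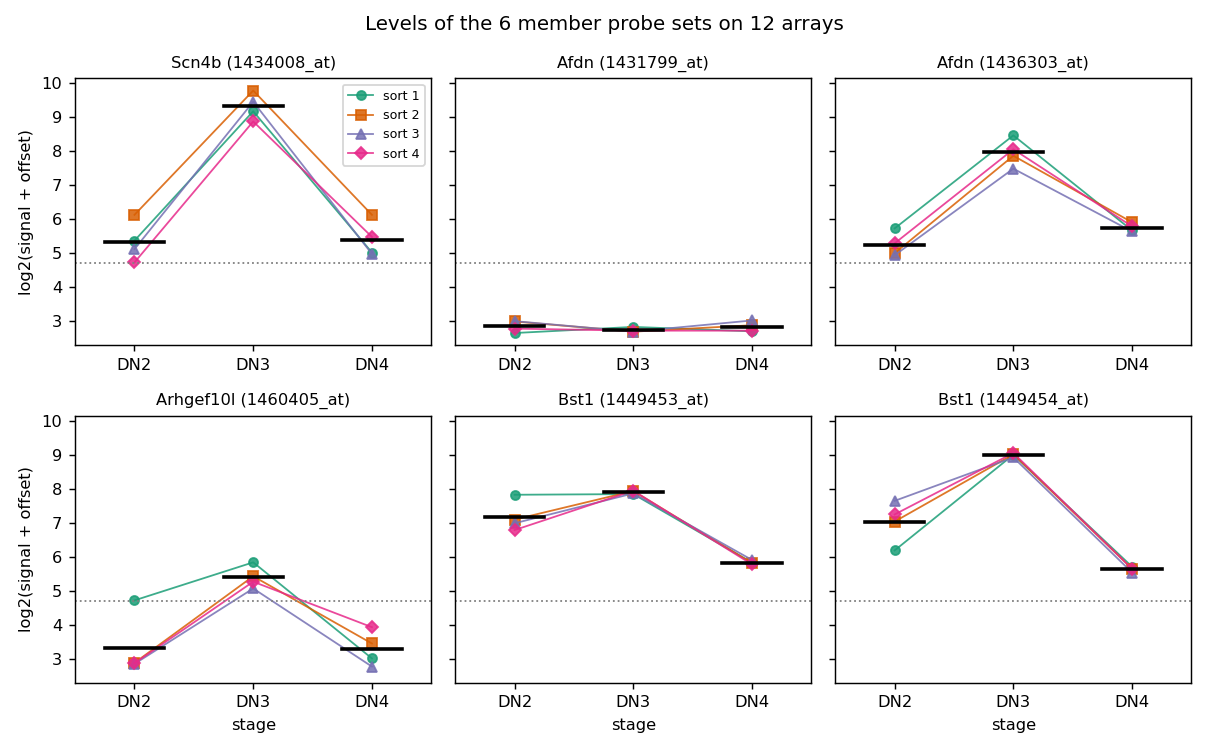
Log2 levels of the 6 probe sets of Scn4b, Afdn, Arhgef10l and Bst1 by stage, with 1 coloured line and marker per sort, black bars for the means of 4 arrays and a dotted line at the filter level of 4.7. Scn4b peaks in DN3 in all 4 sorts, sort 2 runs above the others, and 1 of the 2 Afdn probe sets stays below the filter level on 12 of 12 arrays.

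Sodium channels are built from a pore-forming alpha subunit and accessory beta subunits. A list of 15 such subunits had 12 on the array, and besides Scn4b only Scn2b passed the filter, so the other subunits were not measured above it. Scn2b had signals of 20.4, 15.5, 10.6 and 25.6 in DN2, 55.0, 72.0, 64.3 and 61.6 in DN3, and 32.0, 16.5, 33.9 and 24.6 in DN4. Its DN3 arrays stood above all others. Scn2b rose in DN3 against DN2 by 1.58 ± 0.22 (adjusted p = 0.00108), at least 2.63-fold against the filter level, since the DN2 mean lay below it. It fell in DN4 against DN3 by -1.12 ± 0.22 (adjusted p = 0.00832). A second Scn2b probe set differed by 1.21 (adjusted p = 0.0954) and -1.11 (adjusted p = 0.0966) at the same steps and was not called. Scn2b differed in DN4 against DN2 by 0.46 ± 0.22 (adjusted p = 0.147).

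Afdn, the nectin adaptor, followed Scn4b at a smaller scale on 1 of its 2 probe sets. Probe set 1436303_at read 47.5, 26.5, 25.1 and 33.4 in DN2, 350, 228, 174 and 261 in DN3, and 45.4, 54.6, 44.4 and 49.6 in DN4. The DN3 arrays again lay apart from the rest, sort 1 being the highest and sort 3 the lowest of them. DN3 exceeded DN2 by 2.73 ± 0.22 (6.65-fold) and DN4 lay below DN3 by -2.22 ± 0.22 (4.66-fold). The first step was even among the sorts, from 2.55 to 2.87, and the second ran from -2.80 in sort 1 to -1.84 in sort 3. Probe set 1431799_at stayed between 0.727 and 2.54, below the filter level on 12 of 12 arrays, and shows no course. Averaging both probe sets would give Afdn steps of 1.3 and -1.06.

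Genes of nectin junctions and of the Rap1 pathway were set beside Afdn. Of 23 listed genes, 13 besides Afdn were tested. In DN3 against DN2, where 9.07% of all genes tested were called, 3.71% as higher and 5.36% as lower, 1 rose and 1 fell. Pvr, a nectin-like receptor, rose by 2.28 ± 0.30 (adjusted p = 0.000661), and Ctnna1, alpha-catenin, fell by -0.98 ± 0.20 (adjusted p = 0.0122). Cdh1, E-cadherin, was 0.92 ± 0.26 higher in DN3 in 4 of 4 sorts with no overlap, at an adjusted p of 0.0514, or 0.0111 with the replicate block. In DN4 against DN3, where 13.2% were called, 5.49% as higher and 7.73% as lower, 0 rose and 2 fell by limma, or 3 and 2 at an unadjusted p under 0.05. Cdh1 fell by -2.83 ± 0.26 (adjusted p = 6.32e-05) and Plekha7, a junction protein, by -1.94 ± 0.29 (adjusted p = 0.00163). Pvr stood 0.90 ± 0.30 higher in DN4 than in DN3 (adjusted p = 0.0751, or 0.0263 with the replicate block), and another Pvr probe set was called there at 0.94 ± 0.17 (adjusted p = 0.00571). The list's medians were -0.03 and 0.05, beside 0.02 and 0.05 over all genes. Of the 13 genes, 3 were called higher and 3 lower in DN4 than in DN2, where 31.3% of all genes were called, 15.9% as higher and 15.3% as lower.

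Arhgef10l passed the filter level in DN3 and on few other arrays. It read 20.9, 1.80, 1.63 and 1.73 in DN2, 51.6, 37.6, 28.1 and 33.0 in DN3, and 2.52, 5.37, 1.26 and 9.70 in DN4. Only the DN3 arrays and 1 DN2 array passed the filter level, and that array, of sort 1, stood well above the other DN2 arrays. The fitted differences were 2.07 ± 0.40 in DN3 against DN2 and -2.11 ± 0.40 in DN4 against DN3. Because the lower stage lay under the filter level in each, the linear difference is at least 1.62-fold. Without the DN2 array of sort 1 the first difference was 2.53. With an offset of 1 the steps became 3.04 and -2.96, so their size depends on the offset.

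Other exchange factors of the Dbl family were examined beside it. Of 44 listed genes, 34 besides Arhgef10l were tested. In DN3 against DN2, 0 rose and 5 fell by limma, or 0 and 11 at an unadjusted p under 0.05, and the list's median was -0.24. Over all genes 3.71% were called higher and 5.36% lower in this comparison. The 5 became 3 without the DN3 array of sort 3 or of sort 4, 8 with the replicate block, and 0 with the block and the Gapdh ratio. Vav3, a factor that acts below antigen receptors, fell by -1.04 ± 0.19 (adjusted p = 0.00517). Arhgef2, known for binding microtubules, fell by -0.90 ± 0.12 (adjusted p = 0.000875). In DN4 against DN3, 2 rose and 5 fell, where 5.49% of all genes were called higher and 7.73% lower. The 5 became 2 without the DN3 array of sort 2 or of sort 3, 3 without the DN4 array of sort 1 or of sort 4, 2 without the filter and 13 without normalization. Vav3 fell again by -1.61 ± 0.19 (adjusted p = 0.000337). Arhgef11 rose by 0.70 ± 0.12 (adjusted p = 0.00405). Of the 34 genes, 2 were called higher and 10 lower in DN4 than in DN2, where the shares over all genes were 15.9% and 15.3%, and the list's median was -0.24. Arhgef10, the paralogue of Arhgef10l, had log2 means of 4.66 in DN2, 4.50 in DN3 and 4.68 in DN4, all close to or below the filter level. The list was not complete. Plekhg4, of the same family but not listed, was called higher in DN3 than in DN2 by 1.23 and lower in DN4 than in DN3 by -1.14.

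Bst1 went further down into DN4 than it had gone up into DN3. Probe set 1449454_at read 67.2, 126, 196 and 147 in DN2, 509, 513, 484 and 529 in DN3, and 46.8, 44.6, 40.9 and 44.8 in DN4. The DN3 and DN4 arrays were each tightly grouped, the DN2 arrays spread over a wide range, and no stages overlapped. DN3 exceeded DN2 by 1.97 ± 0.24 (3.93-fold), and DN4 lay below DN3 by -3.37 ± 0.24 (10.3-fold). The drop into DN4 was nearly the same in every sort, from -3.41 to -3.30, whereas the first step ran from 1.28 in sort 3 to 2.82 in sort 1.

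The second Bst1 probe set, 1449453_at, showed a smaller first step in the fit without covariates. It read 222, 132, 121 and 105 in DN2, 225, 241, 229 and 241 in DN3, and 51.2, 51.1, 54.8 and 49.3 in DN4. DN2 of sort 1 was almost as high as the DN3 arrays, and DN4 was lowest throughout. The steps were 0.72 ± 0.19 and -2.07 ± 0.19, and in sort 1 the first step was 0.02. The DN2 array of sort 1 was thus the highest of its stage on this probe set and the lowest on the other one. Without it the first step was 0.95 on 1449453_at and 1.71 on 1449454_at. With the replicate block and the Gapdh ratio as a covariate it was 1.39 on 1449453_at and 1.26 on 1449454_at, so which probe set had the smaller first step depends on the fit.

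Cells of other types that carry CD157 were looked for through marker lists. Summed signals of 8 stromal and endothelial markers, 2 of them past the filter, were 772 to 1090 in DN2, 376 to 543 in DN3 and 149 to 283 in DN4. Summed B cell markers, 7 of 8 on the array and 5 past the filter, were 264 to 344 in DN2, 210 to 276 in DN3 and 203 to 255 in DN4. In each sum 1 gene was the largest part. Pdgfrb, a growth factor receptor gene of stromal cells, had signals of 645 to 942 in DN2, 291 to 427 in DN3 and 76.1 to 131 in DN4. The collagen genes Col1a1, Col1a2 and Col3a1, and Dcn, Pdgfra and Cdh5, had means below the filter level in all stages. Pecam1, of endothelial cells, had log2 means of 6.63, 5.66 and 5.98 in DN2, DN3 and DN4. Cd79b, of the B cell receptor, had signals of 141 to 219 in DN2, 144 to 181 in DN3 and 98.9 to 141 in DN4. Vpreb1, of the pre-B cell receptor, had log2 means of 5.58, 4.67 and 3.76 in DN2, DN3 and DN4, while Cd79a stayed under the filter level at 4.11, 3.78 and 4.55. Ms4a1, another B cell marker, had 4.73, 3.63 and 4.94, and was higher in DN4 than in DN3 by 1.31 ± 0.36 (adjusted p = 0.0355).

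Summed thymic epithelial markers were 142 to 196, 184 to 211 and 161 to 222 in DN2, DN3 and DN4, with overlapping ranges. The defining genes Foxn1 and Psmb11 had stage means below the filter level. Cldn4 had log2 means of 4.49, 5.57 and 4.24 in DN2, DN3 and DN4, and Ccl25 had 5.37, 5.98 and 5.94, none of these differences being called. Krt8 was higher in DN4 than in DN3 by 1.38 ± 0.40 (adjusted p = 0.0465). The part of these cells in the levels of Bst1 was not tested.

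Genes of NAD use and supply were set beside Bst1, itself one of them. The list also held the ion channel genes P2rx7 and Trpm2, and Entpd1, whose enzyme acts on ATP and ADP. Of 24 listed genes, 15 besides Bst1 were tested, and in DN3 against DN2 limma called 0 higher and 0 lower, or 1 and 1 at an unadjusted p under 0.05, with a median of -0.02. Over all genes 9.07% were called in this comparison, and 13.2% in the next. In DN4 against DN3 only Art4, of the ADP-ribosyltransferase family, was called, and it fell by -1.22 ± 0.20 (adjusted p = 0.00298). Nampt, which makes an NAD precursor, was higher in DN4 than in DN2 by 0.78 ± 0.14 (adjusted p = 0.0015) and Art4 lower by -1.69 ± 0.20 (adjusted p = 8.81e-05). Cd38, the related enzyme gene next to Bst1 on chromosome 5, had no probe set with that symbol alone and was not analysed here.

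**Figure D2:**
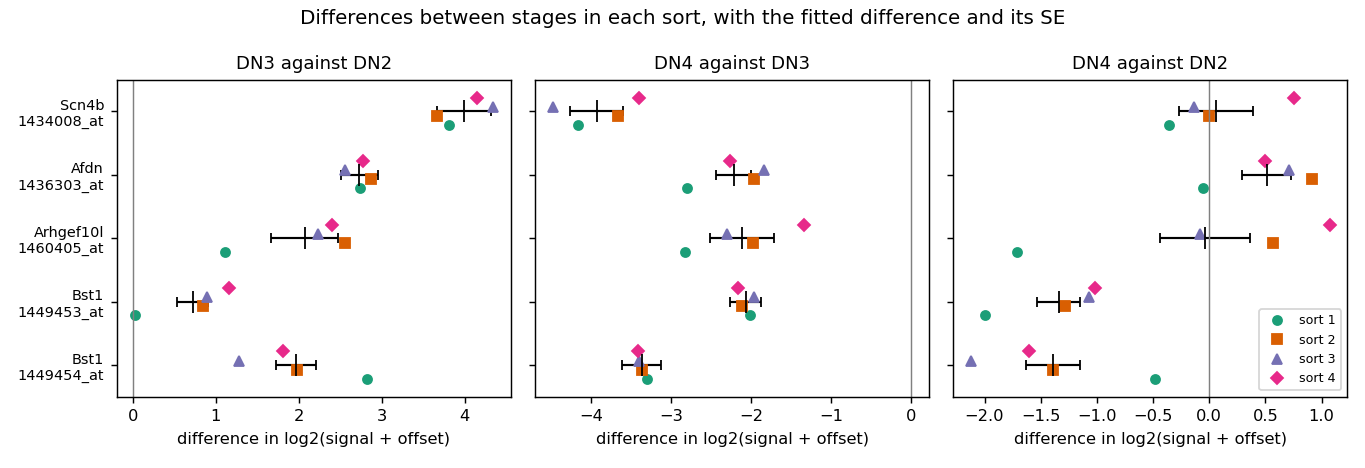
Differences between stages in log2(signal + offset) for the 5 probe sets past the filter, with 1 coloured marker per sort and black ticks with bars for the fitted difference and its standard error (n = 4 arrays per stage). In DN4 against DN2 both Bst1 probe sets lie below 0 in 4 of 4 sorts, while the markers of Scn4b, Afdn and Arhgef10l fall on both sides of 0.

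DN4 against DN2 was the contrast that the choice of genes did not name, although it uses the same arrays. It asked whether the genes returned to their DN2 level after DN3. Over all probe sets 27.1% were called in this comparison, and of the 5 tested here 2 were, both of Bst1. Bst1 was lower in DN4 than in DN2 by -1.39 ± 0.24 (2.63-fold, adjusted p = 0.0012) on 1449454_at and by -1.34 ± 0.19 (2.54-fold, adjusted p = 0.000277) on 1449453_at. It was lower in 4 of 4 sorts on both, the groups did not overlap, and both stayed called in every alternative in which they could be fitted. Without the DN2 array of sort 1 the differences were -1.69 and -1.13, and with the replicate block and the Gapdh ratio they were -2.02 (adjusted p = 0.00841) and -0.77 (adjusted p = 0.029).

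In the same comparison, some markers of several other cell types were lower in DN4 than in DN2. Of 8 myeloid markers, all on the array and 6 past the filter, the summed signals were 93.4 to 191 in DN4 and 406 to 1020 in DN2. The 4 mast cell markers, 1 past the filter, summed to 27.6 to 64.3 in DN4 and 2740 to 3790 in DN2. Nearly all of the DN2 sum was Cpa3, a mast cell protease gene, at 2720 to 3760. Mcpt4, Tpsb2 and Ms4a2 had means below the filter level in all stages, so the sum speaks for Cpa3 alone. Cpa3 was lower by -6.31 ± 0.38 (adjusted p = 4.32e-07), and Mpo, the myeloperoxidase gene, by -3.94 ± 0.44 (adjusted p = 5.21e-05). Lyz2, lysozyme, was lower by -2.54 ± 0.30 (adjusted p = 7.88e-05), the dendritic cell marker Itgax by -2.64 ± 0.25 (adjusted p = 1.59e-05) and Pdgfrb by -2.81 ± 0.20 (adjusted p = 1.53e-06). Other dendritic cell markers did not follow Itgax, as Cd74 differed by 0.55, H2-Ab1 by 0.16 and H2-Aa by 0.06, none of them called. Summed dendritic signals overlapped, at 269 to 869 in DN4 and 317 to 716 in DN2. The myeloid marker Csf1r differed by 0.43 (adjusted p = 0.0741). The part of these cell types in the result for Bst1 was not tested.

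The other 3 genes were not called in DN4 against DN2. Scn4b differed by 0.06 ± 0.33 (adjusted p = 0.910), with a 95% interval of -0.65 to 0.77, so a difference of either sign within that range is not shown to be absent. Arhgef10l differed by -0.04 ± 0.40 (adjusted p = 0.958; interval -0.91 to 0.84), with the DN4 and most DN2 arrays under the filter level. Afdn was higher by 0.51 ± 0.22 (interval 0.04 to 0.99), with an adjusted p of 0.101 without the sorts as a block. With the replicate block the difference of 0.51 had an adjusted p of 0.0371, and without the DN2 array of sort 1 it was 0.67 (adjusted p = 0.0382). Afdn was higher in DN4 than in DN2 in 3 of 4 sorts. Over all genes the median difference was 0.06.

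Among the 11169 genes tested, each by its brightest probe set, 79 (0.707%) were called higher in DN3 than in DN2 and lower in DN4 than in DN3. The opposite course was called for 30 genes (0.269%). The 4 genes belong to the 79 by choice. Ranked by the smaller of the 2 steps, Scn4b was at place 1 (3.93), Afdn at 2 (2.22), Arhgef10l at 3 (2.07) and Bst1 at 5 (1.97). The genes were chosen for these steps, so their places are no separate result. The place of Bst1 rests on 1449454_at, and its other probe set had a first step of 0.72. The median smaller step of the 79 genes was 0.89. By the fitted log2 differences, both steps were at least 2-fold for 30 genes and at least 4-fold for 4. Arhgef10l is among these 4, although its linear difference is only known to be at least 1.62-fold at each step. Of the 79 genes, 8 were called lower in DN4 than in DN2, as Bst1 was, 7 were called higher, and 64 were not called.

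**Figure D3:**
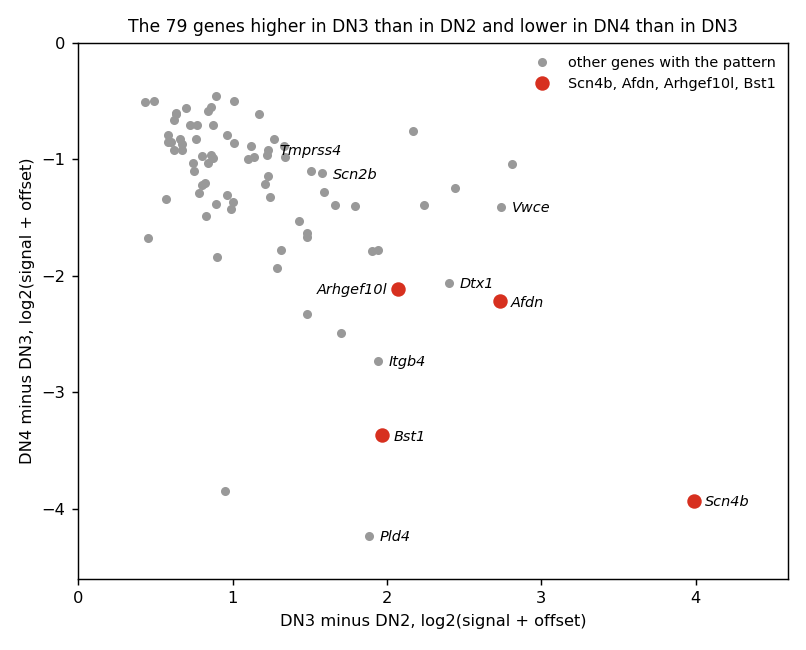
The 79 genes called higher in DN3 than in DN2 and lower in DN4 than in DN3, by their differences at the 2 steps in log2(signal + offset), each by its brightest probe set. Scn4b lies alone at 3.99 and -3.93, and the median smaller step of the 79 genes is 0.89.

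Several genes had profiles near those of Scn4b, Afdn, Arhgef10l and Bst1. Likeness was measured as the root mean square difference of log2 levels over 12 arrays after centring each gene. Nearest to Scn4b came Itgb4, the integrin beta-4 subunit, at 0.88, then Afdn at 0.91, Dtx1, a Notch target gene, at 0.99, Bst1 at 1.03, Cdh15, a cadherin, at 1.06 and Arhgef10l at 1.09. These distances are wide, since no other of the 79 genes had both steps as large as those of Scn4b. Afdn, Bst1 and Arhgef10l were chosen together with Scn4b for the DN3 peak, so their nearness to it is no separate result. Itgb4 signals were 30.3, 37.5, 8.95 and 8.99 in DN2, 70.8, 124, 96.7 and 64.6 in DN3, and 8.48, 19.5, 2.89 and 6.58 in DN4. Sort 2 was highest at each stage for Itgb4, as for Scn4b. The same 6 genes were nearest to Scn4b when stage means were compared in place of arrays.

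The other 3 genes had closer neighbours in profile. Arhgef10l and Afdn, both chosen for the DN3 peak, were 0.49 apart, each among the 3 nearest of the other. Vwce (0.56) and Dtx1 (0.56) were the others near Afdn. Igf2, a growth factor gene, at 0.48 and Scel, sciellin, at 0.54 were the others near Arhgef10l. Bst1 was nearest to Cdh1 (0.55), Cdh15 (0.62) and Nckap5 (0.65). Cdh1 stood 0.92 higher in DN3 than in DN2 and -2.83 lower in DN4 than in DN3, an uneven pair of steps like that of Bst1. By stage means, 2 of the 3 genes named for Afdn, 0 of those for Arhgef10l and 1 of those for Bst1 remained among the nearest 3, so these names depend on the measure.

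Genes of the pre-T cell receptor stage were set beside them as the programme for which DN3 is known. Of 18 tested, 7 rose and 0 fell by limma in DN3 against DN2, or 9 and 0 at an unadjusted p under 0.05, with a list median of 0.60. Over all genes 3.71% were called higher and 5.36% lower. Lef1, a transcription factor gene of early T cells, rose by 3.47 ± 0.14 (adjusted p = 1.29e-07). Ptcra, the pre-T alpha chain, rose by 2.46 ± 0.37 (adjusted p = 0.00159), and Rag1, a recombinase gene, by 2.17 ± 0.15 (adjusted p = 4.58e-06). In DN4 against DN3, 0 rose and 5 fell by limma, or 0 and 9 at an unadjusted p under 0.05, with a median of -0.46, where 5.49% of all genes were called higher and 7.73% lower. Dtx1 fell by -2.06 ± 0.25 (adjusted p = 0.000412), Notch3 by -1.38 ± 0.17 (adjusted p = 0.000576) and Rag1 by -0.76 ± 0.15 (adjusted p = 0.00714). Ptcra differed by -0.98 ± 0.37 (adjusted p = 0.109), from -1.47 to -0.80 over the sorts, and with the replicate block its adjusted p was 0.00259. In DN4 against DN2, where 31.3% of all genes were called, 15.9% as higher and 15.3% as lower, 5 of the 18 were higher and 1 lower. Lef1 stood 3.71 ± 0.14 above its DN2 level (adjusted p = 1.7e-08), a course unlike the DN3 peak of Scn4b. Rag1 remained 1.41 ± 0.15 above its DN2 level (adjusted p = 3.35e-05), and Dtx1 differed by 0.33 ± 0.25 (adjusted p = 0.348). A second, dimmer Dtx1 probe set did not fall in DN4, at 0.07 ± 0.19 (adjusted p = 0.842). It stayed above its DN2 level by 2.02 ± 0.19 (adjusted p = 1.41e-05), with a DN2 mean below the filter level. Whether Dtx1 returned to its DN2 level thus depends on the probe set.

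The genes next to Scn4b on chromosome 9 were examined after the values had been seen. Of the 5 protein-coding genes on either side, 6 were tested and 4 were called with the same course, against 0.707% of all genes. They were Cd3e, Mpzl2, Scn2b and Tmprss4. Scn2b is the next gene on one side, its start 20748 bases from that of Scn4b on the same strand, and Tmprss4, a transmembrane serine protease gene, is the next on the other. Tmprss4 read 23.4, 6.94, 12.6 and 9.42 in DN2, 37.0, 40.5, 30.7 and 36.9 in DN3, and 23.7, 13.7, 18.9 and 11.6 in DN4. Its DN3 arrays lay above all others by a small margin. It rose in DN3 against DN2 by 1.23 ± 0.24 (adjusted p = 0.00955) and fell in DN4 against DN3 by -0.92 ± 0.24 (adjusted p = 0.0327), at least 1.60-fold at each step.

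Cd3e and Mpzl2 lie further out, with all stage means above the filter level. Cd3e, an invariant chain of the T cell receptor complex, read 389, 568, 431 and 392 in DN2, 780, 1070, 715 and 721 in DN3, and 491, 573, 458 and 455 in DN4. Its stages did not overlap at either step. It rose by 0.87 ± 0.17 (adjusted p = 0.00811) and fell by -0.71 ± 0.17 (adjusted p = 0.0194). Mpzl2, an adhesion protein gene known in thymic epithelium, rose by 0.74 ± 0.19 (adjusted p = 0.0391) and fell by -1.03 ± 0.19 (adjusted p = 0.00596). Of its other probe sets, 1 was called at both steps, at 0.67 (adjusted p = 0.0242) and -0.78 (adjusted p = 0.00909), and 1 at neither, at 0.64 (adjusted p = 0.103) and -0.45 (adjusted p = 0.201). Mpzl3 differed by 0.55 and 0.30 and Il10ra by -0.95 and -1.29, with none of these 4 differences called.

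The count of 4 depends on the processing. It was 0 with the replicate block and the Gapdh ratio as a covariate, where all 4 genes kept the sign of the first difference. There Cd3e differed by 0.75 (adjusted p = 0.0784), Mpzl2 by 0.56 (0.285), Scn2b by 1.43 (0.208) and Tmprss4 by 1.58 (0.0988). It was 1 without the 3 arrays of lowest signal, 1 without the filter and 2 with a stricter filter. Leaving out 1 array gave 2 to 4, the lowest without the DN3 array of sort 1, and without the DN2 array of sort 1 Mpzl2 had an adjusted p of 0.102. Around the other genes 0 of 5 tested neighbours of Arhgef10l and 1 of 3 of Bst1 were called with this course, and Afdn had no tested neighbour. The 1 was Fbxl5, a ubiquitin ligase subunit next to Bst1, at 0.66 ± 0.15 (adjusted p = 0.0161) and -0.83 ± 0.15 (adjusted p = 0.00432).

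**Figure D4:**
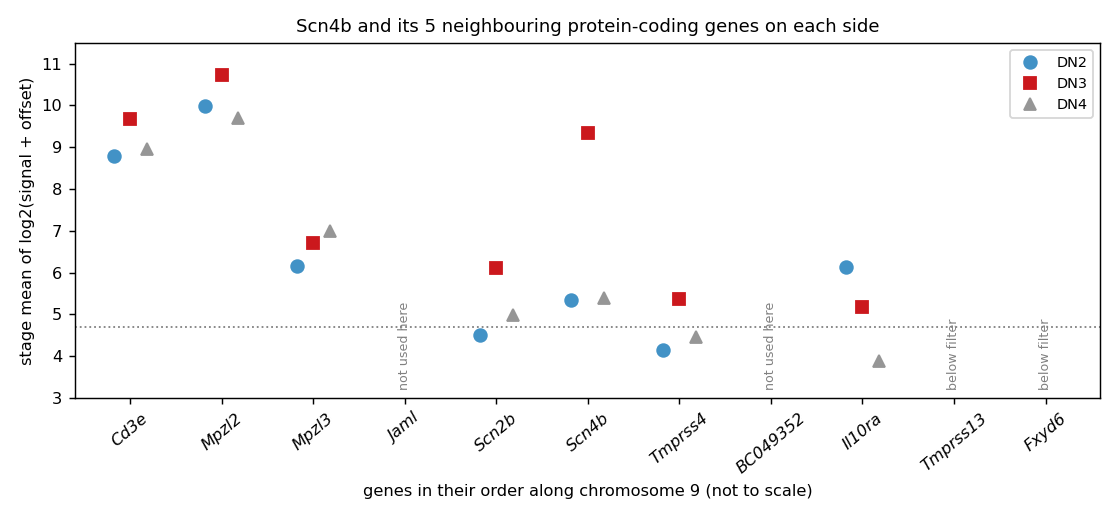
Stage means of log2(signal + offset), 4 arrays each and drawn without error bars, for Scn4b and its 5 protein-coding neighbours on each side in their order on chromosome 9, with a dotted line at the filter level of 4.7. Cd3e, Mpzl2, Scn2b, Scn4b and Tmprss4 have their highest mean in DN3, and Mpzl3 and Il10ra do not.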

How the data were processed

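Per the submitters' processing notes, the authors used GCOS to make the deposited intensity values, which are on a linear scale. The sources used here give neither its version nor its scaling. RNA was amplified in 2 cycles of cDNA synthesis, per the labels' protocols. The table held 45101 probe sets on 12 arrays, 64 of them controls. In the platform annotation 34958 had 1 symbol, 932 several and 9211 none listed, and 34754 symbols were updated through Entrez identifiers to RefSeq's GRCm38.p6 table.

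Signals were quantile normalized, the 25th percentile (5.56) was added before log2, and probe sets above the median (20.5) on at least 4 arrays were kept, 24132 in all. The model of limma 3.58.1 (R 4.3.3) held 1 mean per stage over 12 arrays, and tests were two-sided, with Benjamini-Hochberg adjustment and a threshold of 0.05. Intervals used 12.1 moderated degrees of freedom. The fit was tested on simulated data. Python 3.11.15, pandas 2.3.3 and matplotlib 3.10.9 served for sequences and figures.

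The genes and all lists were chosen with earlier results of these data known. Named genes were the 4 genes' probe sets, the 6 profiles nearest to Scn4b and 3 nearest to each other gene, up to 4 called genes per list and comparison with the smallest adjusted p, and Cd44 and Il2ra. One listed gene group is not reported here. Neighbours on the chromosome, the paralogue Arhgef10, Cd8a, Cd8b1 and Cd4 were added after values were seen. So were the markers of other cell types named, Ptcra, Plekhg4, the actin ratio and values of uncalled genes.

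The labels state that equal sample numbers mark 1 pool of cells. Deviations from stage means correlated at 0.249 to 0.389 within a sort and at most 0.142 between sorts across stages, and 12 of 12 arrays correlated best with their own sort. No arrays were identical, 0 pairs. Each sort is a separate pool of mice. Alternatives were the sort as a replicate block, alone or with the Gapdh ratio, other scaling, offsets, filters and probe set rules, the arrays compared alone, eBayes with trend, array weights and each array left out.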

Additional observations from a re-analysis of the deposited data

Results flagged for a closer look

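Arhgef10l in the DN2 array of sort 1 stood apart from the other 3 DN2 arrays. Its log2 level was 4.72, just above the filter level of 4.7. Its gap to the nearest array was 0.983 of the group's range, above Dixon's 95% critical value. The other 3 had dim signals of 1.80, 1.63 and 1.73, whose log2 spread the offset narrows. That critical value, made for normally spread values, is therefore only a rough guide here. Of 15 groups of 4 arrays tested this way 1 stood out, and for normally spread values chance flags about 1 in 20. Without this array the DN3 minus DN2 difference of Arhgef10l was 2.53, against 2.07 with it, and the DN4 minus DN2 difference was 0.43 (limma adjusted p = 0.272), against -0.04 (adjusted p = 0.958) with it. The same array was the highest DN2 array on one Bst1 probe set and the lowest on the other. The cause was not tested.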

How the results depend on the processing

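In 27 alternatives, of which 12 left out 1 array, the differences of the member probe sets between DN3 and each neighbour kept their sign wherever they could be fitted. Scn4b spanned 3.78 to 4.38 and -4.43 to -3.77. Afdn spanned 1.3 to 2.94 and -2.79 to -1.06, the smallest with the mean of its probe sets. The first step of Bst1 spanned 0.6 to 1.39 on 1449453_at and 1.26 to 2.18 on 1449454_at. In DN4 against DN2 Bst1 stayed called, and Scn4b stayed uncalled while its sign held in 22 of 27. Afdn was called in 2, with the replicate block (adjusted p = 0.0371) and without the DN2 array of sort 1 (0.0382); the block changed no other call of the member probe sets. Probe sets called in DN3 against DN2 numbered 1719, but 3565 with the replicate block, 331 with the block and the Gapdh ratio, 769 without normalization, 1005 without the filter, 1090 with the mean of a gene's probe sets and 1203 to 1727 with 1 array left out. In DN4 against DN3 they numbered 2706, but 5588 with the block, 5603 with the block and the ratio, 5177 without normalization, 1373 without the filter, 1086 without the 3 arrays of lowest signal, 1544 with gene means and 1496 to 2950 with 1 array left out, the lowest without the DN3 array of sort 2. In DN4 against DN2 they numbered 6537, but 3479 with the block and the ratio, 3869 with 1 probe set per gene, 3668 without those 3 arrays, 3329 with gene means and 5176 to 6466 with 1 array left out. Of the probe sets called without the block, 1707, 2697 and 6500 were also called with it. Member probe sets called in DN4 against DN2 were 2, but 1 when each gene had 1 probe set or its mean, and 2 to 3 with 1 array left out. Genes with the DN3 peak numbered 79, but 196 with the block, 29 with the block and the ratio, 40 without the filter, 42 without the 3 arrays and 47 to 78 with 1 array left out, the lowest without the DN3 array of sort 3. Neighbours of Scn4b with the peak numbered 4, but 0 with the block and the ratio, 1 without the filter, 2 with the 75th percentile filter, 1 without the 3 arrays and 2 to 4 with 1 array left out. The causes were not tested. Dim signal limits Arhgef10l, Tmprss4 and Scn2b, whose DN2 means lay below the filter level.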
